A study of Mus musculus with 6 samples.

Results

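The Dlk1-Dio3 locus is an imprinted cluster on mouse chromosome 12. Here it is described by 6 genes of the 19831 that the deposited expression table lists: Dlk1, Meg3, Rtl1, Rian, Mirg and Dio3, all found by symbol. They were chosen from the paternally and maternally expressed genes of the cluster, and their values in both genotypes were already known at that point. The values of the genotypes are therefore given as a description, with no test. RNA was sequenced from inguinal adipose tissue (iAT), the subcutaneous fat depot of the groin, of mice at postnatal day 6. Here 3 wild-type (WT) samples were compared with 3 samples lacking Npffr1 (Npffr1-KO), the gene of a receptor for neuropeptide FF. The labels give no strain, sex, litter or construction of the Npffr1-KO allele, and nothing says that the 3 samples of a genotype are separate animals. The spread between libraries may thus be technical.

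Imprinted genes are transcribed from the allele of 1 parent only. In this cluster the paternal chromosome expresses protein-coding genes (Dlk1, Rtl1 and Dio3), whereas the maternal chromosome expresses long noncoding RNAs (Meg3, Rian and Mirg) that carry small nucleolar RNAs and a large set of microRNAs. A differentially methylated region between Dlk1 and Meg3 sets this choice. Dlk1, known in fat as Pref-1, encodes a membrane protein with EGF-like repeats that resembles Notch ligands and keeps preadipocytes undifferentiated. Dio3 encodes the deiodinase that inactivates thyroid hormone, and Rtl1 is a retrotransposon-derived gene known from placenta and fetal muscle.

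In the GENCODE M21 annotation of the mouse genome build GRCm38 the members span 828 kb of chromosome 12. Dlk1 lies from 109452823 to 109463336 on the plus strand and is followed after 77.7 kb by Meg3, from 109541001 to 109571726 on the same strand. Rtl1, from 109589193 to 109600330, is the member on the minus strand. Its transcript has 2 exons. Rian (109603940 to 109661716), Mirg (109729764 to 109749460) and Dio3 (110279068 to 110281097) lie on the plus strand, Dio3 530 kb beyond Mirg. Meg3, Rian and Mirg have 11, 20 and 12 annotated transcripts, and Dlk1 has 10. The build and annotation behind the deposited values were not stated in the sources used, and these places serve as the order of the genes.

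RefSeq places 58 microRNA hairpins from Dlk1 to Dio3, 54 of them on the plus strand, the strand of the maternal noncoding RNAs. Mirg holds 14 hairpins within its borders, Rian 3 and Meg3 1 on the plus strand, and 23 more lie between Rian and Mirg. A group of 6 hairpins lies on the plus strand inside Rtl1 and is thus read from the strand opposite to it. All 11 mature microRNAs of these 6 hairpins are fully complementary to the Rtl1 transcript, within its coding sequence. One mature microRNA of each hairpin is printed here to make this antisense arrangement visible, with the seed (bases 2 to 8) in capitals. The sequences are those of RefSeq on GRCm38.p6, 5′ to 3′.
mmu-miR-431-5p, chr12:109590459-109590479, plus strand: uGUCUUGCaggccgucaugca
mmu-miR-433-3p, chr12:109591781-109591802, plus strand: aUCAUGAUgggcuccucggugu
mmu-miR-127-3p, chr12:109592888-109592909, plus strand: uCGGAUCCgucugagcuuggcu
mmu-miR-434-3p, chr12:109594565-109594586, plus strand: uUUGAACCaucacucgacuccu
mmu-miR-432, chr12:109595006-109595028, plus strand: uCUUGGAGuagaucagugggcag
mmu-miR-136-5p, chr12:109595331-109595352, plus strand: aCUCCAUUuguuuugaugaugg

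The 6 seeds printed above differ from each other. Among all mature microRNAs of the cluster 9 pairs share a seed. The pair below, from hairpins between Rian and Mirg, is shown as an example of neighbouring microRNAs of the cluster with the same seed in capitals.
mmu-miR-379-3p, chr12:109709102-109709123, plus strand: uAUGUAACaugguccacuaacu
mmu-miR-411-3p, chr12:109710225-109710246, plus strand: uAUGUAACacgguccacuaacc

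The table lists no mature microRNA, and their levels were not analysed here. It lists 8 of the 58 hairpins as genes, and each had a mean of the genotype values below 10 normalized counts.

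The 250 bases before the transcription start given by RefSeq are shown for the highest members, Dlk1 and Meg3, and for the lowest, Dio3. GENCODE starts the Dio3 gene upstream of the RefSeq start, so 162 of the 250 bases of that window lie inside the GENCODE gene. The sequences are from RefSeq on GRCm38.p6, 5′ to 3′, and 5 of the 6 members had an entry. Capitals mark letters searched on both strands: the TATA box TATAAA, the GC box GGGCGG, the CCAAT box CCAAT and the cyclic AMP response element (CRE) TGACGTCA. Overlapping matches run into each other.
Dlk1, chr12:109452573-109452822, plus strand: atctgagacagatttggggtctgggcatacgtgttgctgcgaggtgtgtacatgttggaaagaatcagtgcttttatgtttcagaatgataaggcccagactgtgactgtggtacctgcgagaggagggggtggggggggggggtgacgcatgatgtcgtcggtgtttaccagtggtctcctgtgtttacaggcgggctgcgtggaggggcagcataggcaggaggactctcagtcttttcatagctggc
Meg3, chr12:109540746-109540995, plus strand: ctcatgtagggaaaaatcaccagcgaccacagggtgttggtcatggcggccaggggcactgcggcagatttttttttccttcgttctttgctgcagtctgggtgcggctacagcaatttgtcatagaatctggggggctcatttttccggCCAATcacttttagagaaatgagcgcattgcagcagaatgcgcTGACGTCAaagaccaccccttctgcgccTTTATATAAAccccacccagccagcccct
Dio3, chr12:110278980-110279229, plus strand: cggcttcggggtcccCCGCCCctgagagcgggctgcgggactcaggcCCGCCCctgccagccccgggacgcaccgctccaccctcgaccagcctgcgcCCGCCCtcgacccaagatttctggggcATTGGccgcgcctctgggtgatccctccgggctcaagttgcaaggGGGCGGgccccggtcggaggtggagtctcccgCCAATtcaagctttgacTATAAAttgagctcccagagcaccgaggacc

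These letters occur in 12.4%, 32.7%, 33.8% and 1.55% of 32851 promoter windows of the same length, respectively. The Dlk1 window held none of the 4 motifs. The first Meg3 window held 1 CRE, 1 CCAAT box and 2 overlapping TATA boxes, and the Dio3 window held 4 GC boxes, 2 CCAAT boxes and 1 TATA box. CpG dinucleotides, the sites of DNA methylation, numbered 8 before Dlk1, 10 in the first Meg3 window and 21 before Dio3, with a median of 6 over all windows. The window of a second RefSeq start of Meg3, not shown, held 0 of the motifs and 0 CpG. With no motif, the Dlk1 window could share none with Meg3, so nothing is read from this for their genotype ratios. A match is a description of letters and not a binding site.

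The deposited table gives 1 value per gene and genotype, made from read counts normalized for library size. These normalized counts add up to 23137343 in WT and 23640005 in Npffr1-KO. The ratio between the genotypes is given as log2 of Npffr1-KO over WT and was 0.01 at the median of the 15309 genes whose values averaged at least 10 normalized counts. Genes with few reads, and some with more, were drawn toward equal values by the authors' processing. Myh1, a muscle gene named after its values were seen, had means over the libraries of 3.93 in WT and 92.8 in Npffr1-KO. Its authors' values were 43.8 and 53.0. The value of a genotype is thus not always the mean of its libraries. Since 1 value stands for 3 libraries, no spread can be given for Dlk1, Meg3, Rian and Mirg. For genes averaging up to 65 normalized counts the reads of each library could be worked out, which covers Rtl1 and Dio3. Npffr1 itself had 5, 0 and 1 reads in the WT libraries and 0 reads in each Npffr1-KO library, a total of 6 against 0 reads, which is too few to check the labels firmly.

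One library stood apart from the rest. Summed over the 7 skeletal muscle markers with reads per library, the WT libraries a, b and c held 10, 25 and 7 reads, and the Npffr1-KO libraries held 7, 14 and 602. The reads of these markers were thus concentrated in Npffr1-KO library c. The log2 ratio of Rtl1 was -0.97 without that library and -0.93 with it, on the means of the libraries. For Dlk1, Meg3, Rian and Mirg, and for every marker with a higher level, the single value per genotype includes this library, and values without it could not be computed.

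Of the 6 members 5 had a mean of at least 10, and 3 of these 5, Dlk1, Meg3 and Rtl1, were lower in Npffr1-KO by at least 0.5 on the log2 scale. Of all 15309 genes 4.78% were lower and 4.37% higher by that amount. Because the comparison of genotypes was known when the members were chosen, nothing is read from this share. Rian and Mirg were lower by less, and Dio3 had hardly any reads.

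**Figure D1:**
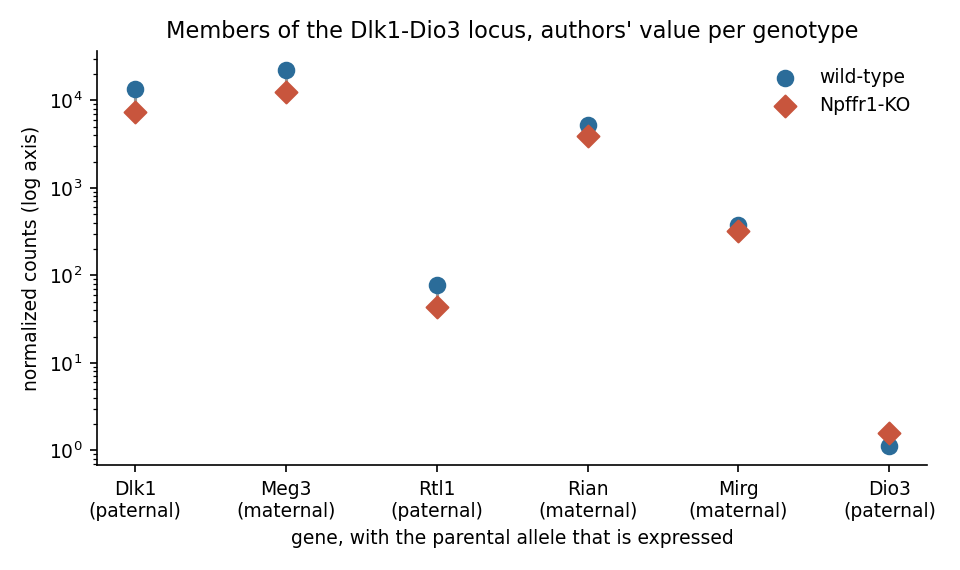
The authors' value of each member in WT (circles) and Npffr1-KO (diamonds), in normalized counts on a log axis, in the order of the genes on chromosome 12 with the expressed parental allele in brackets. The circle lies above the diamond for Dlk1, Meg3, Rtl1, Rian and Mirg, and the values span from 22485 for Meg3 to 1.11 for Dio3 in WT.

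Among the paternally expressed genes, Dlk1 (Entrez 13386) had a value of 13526 normalized counts in WT and 7412 in Npffr1-KO. The Npffr1-KO value was 54.8% of that of WT, a log2 ratio of -0.87. Dlk1 was thus both one of the most abundant transcripts of the depot, with 184 genes higher in WT, and among those with the lowest ratio. A lower ratio was found in 118 of the same 15309 genes, or 0.771% of them. The difference was -6113 normalized counts, and 17 genes of the table had a larger fall.

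Among the maternally expressed genes, Meg3 (Entrez 17263), a noncoding RNA studied as a growth suppressor, was the highest member. Its value was 22485 normalized counts in WT and 12402 in Npffr1-KO, or 55.2% of WT, with a log2 ratio of -0.86. Only 90 genes of the table were higher in WT, and 9 had a larger fall in normalized counts than Meg3, whose difference was -10083. Dlk1 and Meg3 are read from opposite parental chromosomes, and the number of Dlk1 counts for every 100 Meg3 counts was 60.2 in WT and 59.8 in Npffr1-KO. Their levels relative to each other were hence nearly the same in both genotypes, with no replicate check for this ratio.

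Genes as abundant as these seldom had such a ratio. Of the 757 genes that averaged at least 5000 normalized counts 11, or 1.45%, were lower in Npffr1-KO by at least 0.5 on the log2 scale. The ratio of Meg3 or a lower one was found in 3 of them: Dlk1, Meg3 and Slc27a1, a fatty acid transporter, with 10282 and 5442 normalized counts and a log2 ratio of -0.92. Slc27a1 was named after its values were seen. These counts describe the table and are no test of the members.

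**Figure D2:**
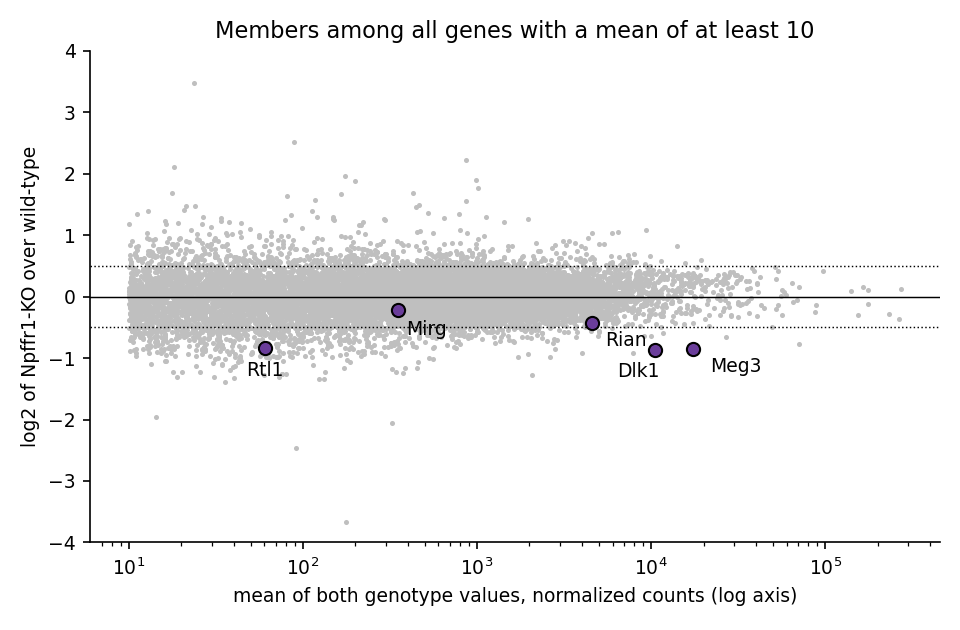
Log2 ratio of Npffr1-KO over WT against the mean of both genotype values (normalized counts, log axis) for 15309 genes averaging at least 10 (grey), with 5 members marked. Dlk1 and Meg3 lie near -0.87 and -0.86 at the right of the plot, where few genes pass the dotted lines at -0.5 and 0.5. Dio3 is below the minimum and not shown.

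Rtl1 (Entrez 353326) was a low transcript in iAT. The authors' value was 77.7 normalized counts in WT and 43.3 in Npffr1-KO, a log2 ratio of -0.84. The length given for it, 5235 bases, is its coding sequence of 5232 bases with the 3 bases of the stop codon, so the values count reads on the coding part. For this gene the reads of each library were worked out. The WT libraries, lettered here a to c because they could not be tied to sample numbers, held 72, 93 and 78 reads, and those of Npffr1-KO held 39, 38 and 46. Every WT library was above every Npffr1-KO library. After division by the size factors, which ranged from 0.916 to 1.038, the mean was 79.3 ± 10.4 (SD, n = 3) normalized counts in WT and 41.7 ± 3.07 (SD, n = 3) in Npffr1-KO. The difference of these means exceeded the SD of either genotype, and the log2 ratio of the means was -0.93. Of the 2368 genes that averaged at least 10 and whose reads were worked out, 237, or 10.01%, had every WT library above every Npffr1-KO library, and 150 the reverse. Rtl1 was chosen with its genotype ratio known, so the separation is a description.

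The antisense transcript of Rtl1 is listed as 6430411K18Rik, for which RefSeq gives the synonym PEG11as. It is the maternally expressed partner that carries the microRNAs of the 6 hairpins opposite Rtl1. The authors' values were 31.7 normalized counts in WT and 23.6 in Npffr1-KO, a log2 ratio of -0.43. The libraries a, b and c held 45, 12 and 44 reads in WT, and 26, 20 and 19 in Npffr1-KO. WT library b, the one with the most Rtl1 reads, held the fewest antisense reads of all, so the genotypes overlapped. The mean was 33.0 ± 18.4 (SD, n = 3) normalized counts in WT and 22.3 ± 5.35 (SD, n = 3) in Npffr1-KO, a difference within the SD of WT. For each antisense read there were 1.60, 7.75 and 1.77 reads of Rtl1 in WT and 1.5, 1.90 and 2.42 in Npffr1-KO. Apart from WT library b these numbers lay in a narrow range across both genotypes. The sources used do not say whether the libraries kept the strand, and without strand the reads of both genes cannot be told apart where they overlap.

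WT library b also stood out for Mir433, a hairpin inside Rtl1 on the opposite strand, with 1, 8 and 0 reads in WT libraries a, b and c and 0, 1 and 0 in Npffr1-KO. The authors' values of Mir433 were 1.88 normalized counts in WT and 1.40 in Npffr1-KO. Of the 31-base stretches of Rtl1 transcripts 6.76% occur in another gene as well, among them 1.58% in Mir433, so reads of Rtl1 and Mir433 may have been split between them. Of the other genes with reads per library and at least 10 normalized counts on average, those whose log2 normalized counts followed Rtl1 most closely over the 6 libraries were AI182371, Klf5 and Gm19619, with Pearson's r of 0.995, 0.990 and 0.983 among 2367 genes compared. Klf5, which encodes a transcription factor of adipocyte differentiation, had 37.7, 54.8 and 41.5 normalized counts in the WT libraries and 25.1, 20.2 and 24.1 in Npffr1-KO. All 6 libraries share depth and genotype across these genes, so the values are descriptive.

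**Figure D3:**
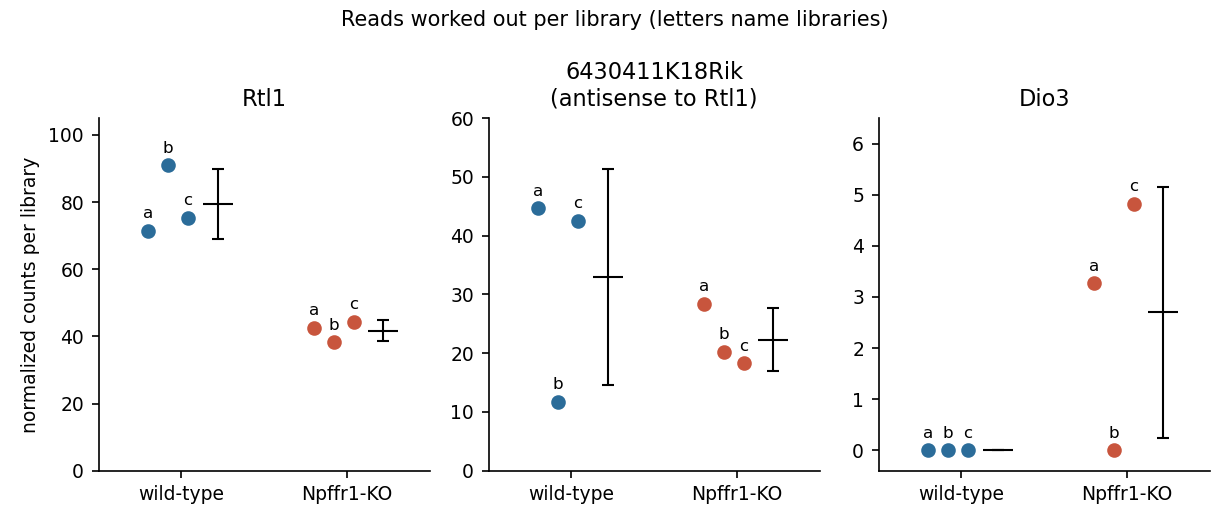
Normalized counts of Rtl1, of 6430411K18Rik (antisense to Rtl1) and of Dio3 in each of the 3 WT and 3 Npffr1-KO libraries (points, lettered a to c), with the mean and SD (black bars, n = 3). The genotypes are apart for Rtl1, overlap for 6430411K18Rik because of WT library b, and Dio3 has reads in 2 Npffr1-KO libraries.

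Dio3 (Entrez 107585) was close to absent from iAT at this depth. The WT libraries a, b and c held 0 reads each, and the Npffr1-KO libraries held 3, 0 and 5. The genotypes overlapped at 0 reads. A count of 0 allows up to 3 reads over the WT group, counting error alone considered. Of the 8 Npffr1-KO reads 3 were left without library c, the one with the muscle RNA, and 5 without library a, so no fold is given. The authors' values, drawn toward each other, were 1.11 and 1.59 normalized counts. Its antisense neighbour Dio3os held 2, 2 and 1 reads in WT and 0, 2 and 1 in Npffr1-KO. The outermost members thus lay far apart in level. On the authors' values Dlk1 was at 3120 and Dio3 at 0.591 normalized counts per kb of listed gene length in WT. For Dio3, with 0 WT reads, this value does not come from WT reads.

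Rian (Entrez 75745), the host of small nucleolar RNAs, had 5251 normalized counts in WT and 3913 in Npffr1-KO. Its log2 ratio was -0.42, at 74.5% of the WT value. Mirg (Entrez 100040724), which holds the distal microRNAs, had 375 and 323 normalized counts and a log2 ratio of -0.21, at 86.3% of the WT value. The maternal RNAs thus differed in their ratio, and the ratio was closer to equality the farther the RNA lay from Meg3. For every 100 counts of Meg3 there were 23.4 counts of Rian in WT and 31.5 in Npffr1-KO, a log2 change of 0.43. For Mirg the numbers were 1.67 and 2.61, a log2 change of 0.65. Without values per library this order of 3 genes could not be set against replicate error. Ratios in this table differed with gene length, and Mirg, at 1315 bases, is the shortest member by listed length. After centring on genes of like length the log2 ratios were -0.83 for Meg3, -0.37 for Rian and -0.38 for Mirg, so the difference between Rian and Mirg was no longer present.

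By level per kb of listed gene length the order in WT was Meg3 (6847), Dlk1 (3120), Rian (1465), Mirg (285), Rtl1 (14.8) and Dio3 (0.591), in normalized counts per kb. In Npffr1-KO the values were 3776, 1710, 1092, 246, 8.27 and 0.850, in the same order. Dio3 held 0 reads in the WT libraries, so its WT value does not come from WT reads. Neighbours in this order cannot be compared with their spread, except that every library had more Rtl1 than Dio3 reads. The sum of the 3 maternal members was 28111 normalized counts in WT and 16638 in Npffr1-KO, and that of the 3 paternal members was 13604 and 7457. The log2 ratios of these sums were -0.76 and -0.87, and each sum is made up mostly of its highest gene. Together the 6 members took 0.180% of all normalized counts in WT and 0.102% in Npffr1-KO. Since iAT is a mixture of cells, fewer cells of a type and less RNA per cell cannot be told apart.

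Next, the genes beside the cluster were considered, which are not known to be imprinted as a group. Of the 10 listed genes before Dlk1 and the 10 after Dio3, 19 had a mean of at least 10. Of these 1 was lower by at least 0.5 on the log2 scale and 0 were higher, while 11 had a ratio below 0 and 8 above. Among all 15309 genes 4.78% were lower and 4.37% higher by that amount. The median log2 ratio was -0.01 before Dlk1 and -0.07 after Dio3. The 1 lower neighbour was the noncoding gene Gm16596, at 20.3 and 11.3 normalized counts (log2 ratio -0.85). Immediately before Dlk1, Begain, which is reported as paternally expressed in some species and encodes a synaptic scaffold partner, had 194 and 141 normalized counts with a log2 ratio of -0.46, and Wdr25 had 95.4 and 116 with 0.28. Immediately after Dio3, Ppp2r5c, a regulatory subunit of protein phosphatase 2A, had 3121 and 3104 normalized counts with -0.01, and B930059L03Rik had 15.3 and 11.9 with -0.37. Log2 ratios as low as those of Dlk1, Meg3 and Rtl1 were thus not seen in the 2 genes next to each end of the cluster.

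**Figure D4:**
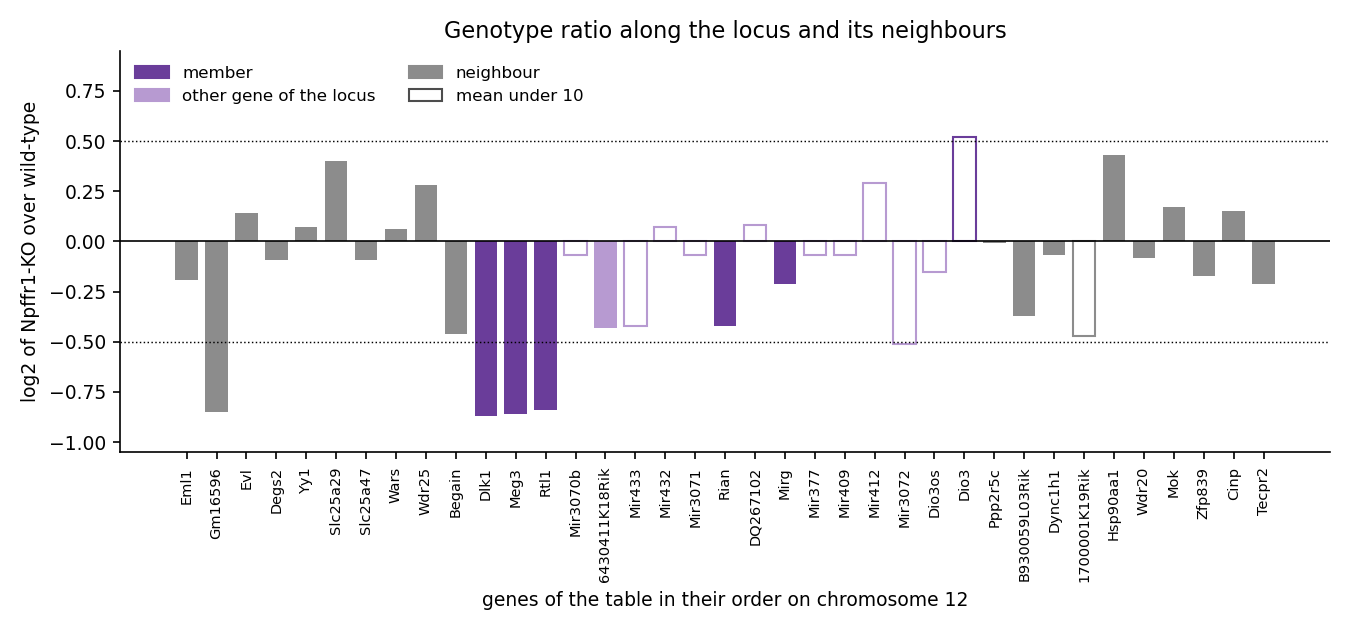
Log2 ratio of Npffr1-KO over WT for the genes of the table in their order on chromosome 12, with members in dark purple, other genes of the cluster in light purple and 10 neighbours on each side in grey. Open bars have a mean under 10 and are drawn toward 0. Dlk1, Meg3 and Rtl1 stand side by side at -0.87, -0.86 and -0.84, and Rian and Mirg at -0.42 and -0.21.

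Of 11 other genes listed between Dlk1 and Dio3, 6430411K18Rik was the 1 gene with a mean of at least 10. Mir3072, near Mirg, held 3, 7 and 7 reads in WT and 3, 3 and 1 in Npffr1-KO. The genotypes overlapped at 3 reads. The microRNA genes overlap host transcripts, and reads of a hairpin and its host cannot be told apart.

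Dlk1 acts through a membrane protein that binds within the Notch family, and a list of Notch ligands, receptors and targets was therefore described. Of its 20 genes 19 had a mean of at least 10, and 0 of 19 passed 0.5 on the log2 scale in either direction. The median log2 ratio was -0.22, with 16 of 19 below 0. Over all 15309 genes the median was 0.01, with 7474 below 0 and 7835 above. Of these genes 4.78% were lower and 4.37% higher by at least 0.5. The highest member of the list, the receptor Notch3, had 6895 normalized counts in WT and 5142 in Npffr1-KO (log2 ratio -0.42). The 3 genes above 0 were Hes1 at 962 and 1315 with 0.45, Heyl with 0.15 and Adam17 with 0.01. These 3 were named after their values were seen. Notch signalling itself was not measured. Dlk2, the closest relative of Dlk1, had 13.0 and 9.65 normalized counts with -0.43, which was named because it is the paralogue. Its reads overlapped between the genotypes, at 12, 11 and 20 in WT and 3, 14 and 9 in Npffr1-KO.

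A list of 7 regulators that DLK1 is reported to act on in adipogenesis had a median log2 ratio of 0.20. Past 0.5, 0 of 7 were lower and 1 was higher, and the shares among all 15309 genes were 4.78% and 4.37%. The 1 higher gene was Cebpb, an early transcription factor of adipocyte differentiation, at 1229 and 1764 normalized counts (log2 ratio 0.52). The highest gene of the list, Fn1, encoding the matrix protein fibronectin to which DLK1 binds, had 27919 and 23753 normalized counts with -0.23. Pparg, the main regulator of fat cell formation, had 3864 and 5098 with 0.40. Sox9, a progenitor factor, had 58.6 and 80.3 with 0.45. Both were named after their values were seen. The rest of the 7 were Klf4 at 2658 and 3045 with 0.20, Cebpd at 781 and 851 with 0.12, and Cebpa at 12682 and 12629 with -0.01. The list mixes factors of differentiation with a progenitor factor, so its median is not read as a single direction. In adipocyte markers the median was 0.09 for 10 of 10 genes with a mean of at least 10. None of the 10 was lower, and 1 was higher, the adipokine gene Lep with 4210 and 8703 normalized counts (log2 ratio 1.05). The highest adipocyte marker, Fabp4, the fatty acid binding protein of fat cells, had 156285 and 173188 with 0.15.

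Which cells held the Dlk1 RNA was not measured. Markers of adipocyte progenitors were described because DLK1 keeps preadipocytes undifferentiated. All 10 had a mean of at least 10, with 0 lower, 1 higher, 6 below 0 and a median log2 ratio of -0.08. Their summed level was 29329 normalized counts in WT and 27086 in Npffr1-KO. Past 0.5 on the log2 scale, 4.78% of all 15309 genes were lower and 4.37% higher. Single markers ranged from 405 to 9258 normalized counts in WT. The highest, Cd34, had 9258 and 8323 normalized counts (log2 ratio -0.15), and the 1 higher gene, F3, which marks a subset of progenitors, had 405 and 572 with 0.50. The lowest ratio of the list was that of Pdgfra, at 1894 and 1467 with -0.37, named after its values were seen. Dlk1 was chosen with its low ratio known. That the progenitor list lay nearer to equality than Dlk1 was not tested, and nothing is read from it.

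Some markers of other cell types were lower as well. Over all 15309 genes 4.78% were lower by at least 0.5 on the log2 scale, and 7474 had a ratio below 0. All 7 endothelial markers were below 0, with a median log2 ratio of -0.41 and a sum of 70406 normalized counts in WT and 54526 in Npffr1-KO. The highest was Cdh5, the cadherin of endothelial junctions, at 23029 and 17863 (log2 ratio -0.37), and the 1 past 0.5 was Vwf, the von Willebrand factor, at 3613 and 1998 with -0.85. Of the Schwann cell and neuron markers, Sox10, the neural crest factor, was lower, at 719 and 407 normalized counts (log2 ratio -0.82), and S100b, also found in fat cells, was higher, at 472 and 743 with 0.65. That list is not summarised here. None of the endothelial markers was near 0, the lowest being Tek at 2261 normalized counts in WT. Meg3 is known from endothelial and neural cells. The part of the cell mixture in the ratios of the members was not tested.

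Some markers of other lineages were higher, whereas the macrophage and epithelial lists had genes on both sides of 0. Over all 15309 genes 4.37% were higher and 4.78% lower by at least 0.5 on the log2 scale. Of 7 skeletal muscle markers with a mean of at least 10, 3 were higher and 0 lower, with a median log2 ratio of 0.47 and a sum over the 11 listed markers of 515 and 905 normalized counts. The highest was Acta1, skeletal muscle actin, at 171 and 410 (log2 ratio 1.26). Ckm and Tnnt3 were higher too, at 27.5 and 46.4 and at 90.5 and 152 normalized counts, both with 0.75. The reads of Ckm per library were 2, 3 and 2 in WT and 6, 1 and 215 in Npffr1-KO, and nearly all of them lay in Npffr1-KO library c. Its means over the libraries were 2.28 and 71.6 normalized counts, so the authors' values of 27.5 and 46.4 lay far closer together. Reads per library were worked out for another set of 7 muscle markers, which shares Ckm and some others with the first. Over this set the log2 ratio of the summed normalized counts was 3.87 with all libraries and -0.33 without library c. That library was left out after its reads were seen. The higher summed level of this set hence lay in 1 library. For Acta1, Tnnt3 and other markers of the first set the reads per library were not worked out. The myoblast factor Myod1 was near 0, at 0.497 and 0.476. Of 6 lymphocyte markers 3 were higher (the T cell genes Cd3e, Cd3d and Lck, at 0.64, 0.72 and 0.74), with a median of 0.48 and a sum of 9526 and 12608 normalized counts. The highest of them, Cd79a of B cells, had 3383 and 4250 with 0.33. The 6 macrophage markers had a median of 0.13, with 3 below 0, 3 above and none past 0.5. Their sum was 17497 and 20423, and the highest was Lyz2 at 9262 and 11951 with 0.37. Of 5 keratinocyte and mammary epithelial markers 2 had a mean of at least 10, 1 below 0 and 1 above, with a median of 0.13. The sum over the 5 was 64.1 and 70.0, and the highest, Epcam, had 28.7 and 36.4 with 0.34. The reads of the keratin gene Krt5 came from WT library a and Npffr1-KO library c, with 11 and 21 reads and 0 in the others. Krt5 was named after its values were seen.

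**Figure D5:**
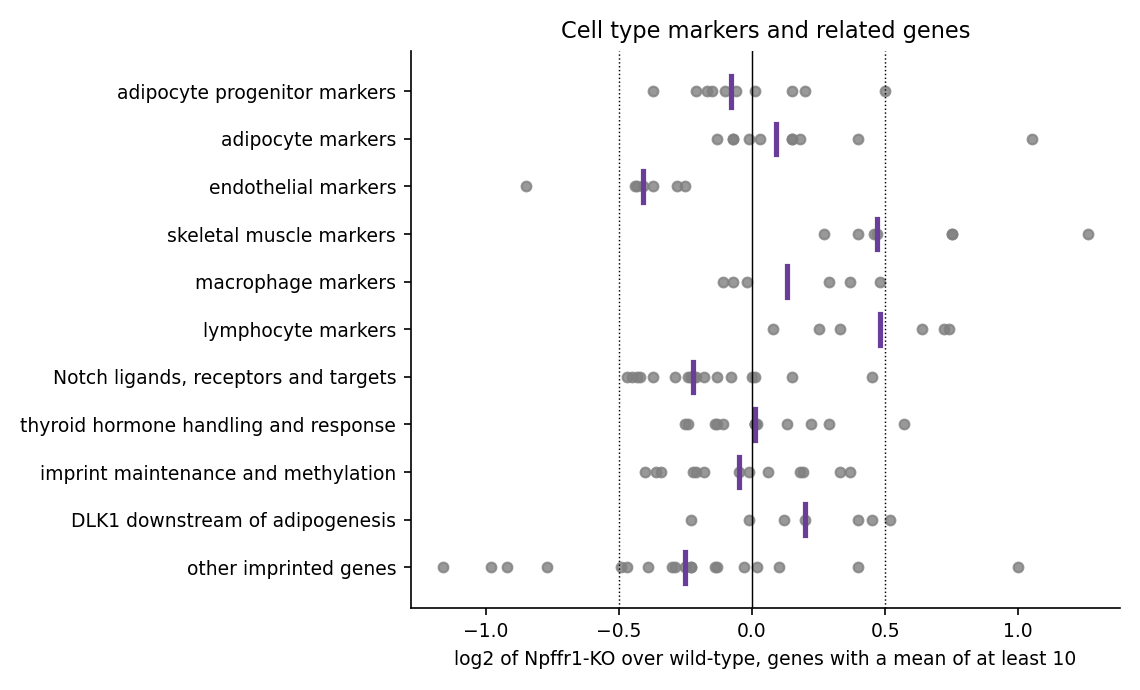
Log2 ratio of Npffr1-KO over WT for each gene with a mean of at least 10 (points) in lists of cell type markers and of genes related to the members, with the median of each list (purple bars). The endothelial list has its median at -0.41 and the skeletal muscle list at 0.47. The progenitor and adipocyte lists have theirs at -0.08 and 0.09. Reads per library were worked out for only some of the plotted muscle genes, and those lay mostly in 1 Npffr1-KO library.

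Thyroid hormone genes were described because Dio3 inactivates the hormone. Past 0.5 on the log2 scale, 4.78% of all 15309 genes were lower and 4.37% higher. Of the 15 thyroid hormone genes 13 had a mean of at least 10, with 0 lower, 1 higher and a median log2 ratio of 0.01. The highest was Ncor1, a corepressor, at 6201 and 6234 normalized counts (log2 ratio 0.01), and the 1 higher gene was Hr, a corepressor and known target of the hormone, at 517 and 768 with 0.57. Dio2, the deiodinase that activates the hormone, had 25.9 and 31.7 with 0.29, and was named for its role. Its reads overlapped between the genotypes, at 51, 11 and 13 in WT and 19, 26 and 54 in Npffr1-KO.

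Genes that maintain imprints and DNA methylation were measured too. The shares past 0.5 among all 15309 genes were 4.78% lower and 4.37% higher. All 13 genes of this list had a mean of at least 10, and 0 of 13 passed 0.5 in either direction. Their median log2 ratio was -0.05. The highest, Trim28, a corepressor needed at imprinted regions, had 4733 and 5346 normalized counts with 0.18. Zfp57, which binds methylated imprinting regions and recruits Trim28, had 448 and 341 with -0.40 and was named for its role. Of 4 retrotransposon-derived relatives of Rtl1 with a mean of at least 10, none passed 0.5, with a median of -0.24. The highest was Zcchc5, at 437 and 367 normalized counts (log2 ratio -0.25).

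Finally, imprinted genes of other chromosomes and clusters were set beside the members, from a list chosen with results of these data known. Over all 15309 genes 4.78% were lower and 4.37% higher by at least 0.5 on the log2 scale, and 7474 were below 0. Of the 20 imprinted genes 19 had a mean of at least 10. Of these 4 were lower and 1 higher past 0.5 on the log2 scale, 15 were below 0, and the median log2 ratio was -0.25. The lower genes were Zim1 at 238 and 106 normalized counts (log2 ratio -1.16), the zinc finger gene Peg3 at 3460 and 1754 (-0.98), the cell cycle inhibitor Cdkn1c at 5234 and 2761 (-0.92), and the noncoding RNA H19, the highest gene of the list, at 89449 and 52453 (-0.77). The growth factor gene Igf2, next to H19, had 57714 and 41073 with -0.49 and was named after its values were seen. Magel2 was the 1 higher gene, at 37.2 and 74.4 with 1.0. Its reads per library were 37, 21 and 40 in WT and 64, 26 and 148 in Npffr1-KO, so the genotypes overlapped. On the means of the libraries its log2 ratio was 1.32, and 0.59 without Npffr1-KO library c. Some highly abundant imprinted genes were near equality, such as Gnas at 58958 and 59765 with 0.02. Zim1 and Peg3 are neighbours in a cluster of their own. Low ratios were hence found in several imprinted clusters of the same libraries and not at the Dlk1-Dio3 locus alone, and for the 4 lower genes no spread between libraries was available.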

How the data were processed

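RNA of 6 iAT samples from postnatal day 6, 3 WT and 3 Npffr1-KO, was sequenced. The groups came from the sample labels. The submitters' processing notes name Bowtie2, RSEM and DESeq2, whose versions, like the genome build, annotation and strand setting, were not stated in the sources used. The deposited table holds a signal from read counts after the authors' normalization for library size, as 1 value per gene and genotype in 2 columns. Its fold changes and p-values are the authors' own comparison and were not used. A second deposited table repeats part of it and was not used either.

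The log2 ratio of Npffr1-KO over WT was computed from both values. The means of genes with a single read take 6 values, which gave the size factor and, from the genotype whose value was higher, the genotype of each library. For 6952 genes, those averaging up to 65, combinations of whole reads were then searched, a limit set after seeing the data so that Rtl1 was included. Exactly 1 combination matched the mean for 6855 genes (98.6%), none for 97, and several for 0. The direction of the reads was that of the values for 4783 of 4783 genes with a log2 ratio over 0.1 in size. In 6239 genes simulated for this search the reads were recovered for 100%. The simulated means were sums of whole reads at the same size factors, so a matching combination always existed. For 97 real genes none did, so the simulation checks the search only. Whether the counts behind the real values were rounded estimates was not stated in the sources used. Reads are not independent molecules, and the floor of 3 reads for a count of 0 covers counting error only.

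The members and all gene lists were chosen with earlier results of these data known, and no test or p-value is given. Named are the members, locus genes with a mean of at least 1, neighbours past 0.5 on the log2 scale and the 2 genes next to each end, of each list the highest gene and up to 4 largest past 0.5, and the 3 genes most like Rtl1. Other names are marked, and part of the Schwann cell and neuron list is not reported here. Alternatives were pseudocounts of 1 and 10, other minimums and folds, centring on the median gene or on genes of like length (20 classes) or mean, and leaving out single libraries. Python 3.11.15, numpy 2.4.6, pandas 2.3.3, scipy 1.17.1, numba 0.67.0 and matplotlib 3.10.9 were used.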

Additional observations from a re-analysis of the deposited data

How the results depend on the processing

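The direction of the log2 ratio was kept by all 6 members under every alternative run, but a pseudocount cannot change it. Among the members, log2 ratios with single libraries left out were computed for Rtl1 only. For the other members the kept direction is thus no check between libraries. Centring on genes of like length moved Dlk1 from -0.87 to -0.80, Meg3 from -0.86 to -0.83, Rian from -0.42 to -0.37 and Mirg from -0.21 to -0.38. Centring on genes of like mean gave -0.94 for Dlk1 and -0.93 for Meg3. The number of members lower past the fold was 3 at 0.5, 4 at 0.3 and 0 at 1 on the log2 scale. Rtl1 ranged from -0.99 to -0.81 when each library was left out in turn, against -0.93 with all 6 libraries, and was -0.72 with a pseudocount of 10. Dio3 ranged from 0.06 with that pseudocount to 0.55, on values drawn together by the authors' processing. Centring on genes of like length turned the median of the adipocyte markers from 0.09 to -0.00 and that of the imprint maintenance genes from -0.05 to 0.06. Without Npffr1-KO library c, an alternative chosen after seeing the data, the log2 ratio of the summed skeletal muscle reads went from 3.87 to -0.33. These muscle reads lay mostly in that library. The log2 ratio of Magel2 went from 1.32 to 0.59 without it. Genes lower by at least 0.5 numbered 732 with a mean of at least 10 and 459 with a mean of at least 50. The cause of the other shifts was not tested. No paired analysis was possible because the table has 1 value per genotype and the libraries found from it carry no sample number. The depth limits Dio3, Dio3os and the microRNA genes, and for Dlk1, Meg3, Rian and Mirg the missing values per library limit every statement.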
